A study of Mus musculus with 23 samples.

Results

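The effect of a calcineurin transgene on the heart transcriptome was measured in mice that all received JIB-04, at 77 days of age. The comparison set 4 libraries from CnAtg hearts against 3 libraries from wild-type (WT) hearts, 7 of the 23 libraries of the study. CnAtg mice carry a calcineurin A transgene that, per the name given in the study's design text, is driven by a myosin heavy chain (MHC) promoter, a class of promoter active in heart muscle cells. All mice were C57BL/6. Both genotypes received JIB-04, a small molecule that inhibits histone demethylases of the Jumonji family, in 3 doses a week of 50 mg/kg each. Treatment of the CnAtg mice began at week 5, and the start week of the WT JIB-04 mice is not given in the sources used here. The drug was therefore common to both groups, and WT vehicle hearts of this age were not analysed here, so the 2 genotype groups are compared under the drug. A difference in start week, if there was one, cannot be told apart from genotype, and the sexes, given below, were not balanced. Beside it stand further groups: CnAtg vehicle at day 77 (4 libraries, treated from week 5), and CnAtg JIB-04 and WT JIB-04 at day 45 (3 libraries each, CnAtg from week 4). WT vehicle and CnAtg vehicle at day 45 (3 libraries each, from week 4) enter only a plot and a fit over all 23 libraries. Hearts were sequenced as bulk RNA, in which fewer cells of a type and less RNA per cell cannot be told apart. For WT mice the design text names no drug treatment, but the sample titles place these 3 WT libraries under JIB-04; the titles were followed. The labels name the libraries of a group as replicates without saying that each came from a separate mouse, so p-values measure the spread between these libraries.

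Calcineurin is a phosphatase switched on by calcium and calmodulin. It removes phosphates from NFAT transcription factors, which then enter the nucleus and act with GATA4 and MEF2 on genes of heart growth. Hearts with a constantly active calcineurin enlarge and fail, and the state is known for a return of fetal sarcomere genes, natriuretic peptides, fibrosis and a loss of oxidative metabolism.

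The members of the comparison were all 12880 of 43154 features with an FPKM (fragments scaled by transcript length and library total) of at least 1 in at least 3 of the 7 libraries. A feature under 1 FPKM in every library of a group could reach this filter only through the other group, which largely set its direction. Differences are on the log2(FPKM + 1) scale, CnAtg minus WT, and understate the change of genes with low levels. Of the 12880 features, 2327 (18.1%) were higher in CnAtg hearts and 2715 (21.1%) were lower at an adjusted p under 0.05 (limma, Benjamini-Hochberg over all features). A difference of at least 2-fold was reached by 440 of the higher (3.42% of features) and 370 of the lower (2.87%). CnAtg and WT libraries had separate ranges for 5863 features (45.5%), with CnAtg above WT for 2774 and below for 3089. The median over all features was -0.01, and the 95% interval of a difference reached a median of 0.23 to either side. Of the calls, 1530 higher and 1755 lower features were also called in each of the 7 fits that left out 1 library. Counts of called genes in the lists below are to be read against the shares of 18.1% higher and 21.1% lower.

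Some measures of the libraries moved with genotype. Mitochondrially encoded transcripts made up 15.9% to 16.6% of summed FPKM in the CnAtg libraries and 24.4% to 27.1% in WT, and their share enters the level of every other gene. When FPKM were rescaled to a total that holds neither mitochondrial nor hemoglobin transcripts, here called the reduced total, the median of all features moved from -0.01 to 0.19 and the share of calls that were higher moved from 46.2% to 77.5% (4968 higher, 38.6% of the features tested, and 1441 lower, 11.2%). Under median-ratio scaling that share was 48.1% and under quantile normalization 47%. Relative depth, estimated from how finely low values are graded, was 0.979 to 1.15 of the mean library in CnAtg and 0.83 to 0.92 in WT; read counts are unknown. The features mt-Co3, mt-Atp6 and mt-Atp8 were listed at 0 in all 3 WT libraries and in CnAtg replicate 2, and with values in the other CnAtg libraries; they were left out of every share and fit. Without them the mitochondrial share of CnAtg replicate 2 was 16.6%, against 15.9% to 16.5% in the other CnAtg libraries. Hemoglobin genes made up 0.984% to 2.73% of summed FPKM in CnAtg and 0.69% to 1.05% in WT. By their sex-linked transcripts, 3 CnAtg libraries were female and 1 male, against 1 female and 2 male in WT. The part of these measures in the gene differences was not tested beyond the alternative fits. List counts on the reduced total are to be read against its own shares of 38.6% higher and 11.2% lower.

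**Figure D1:**
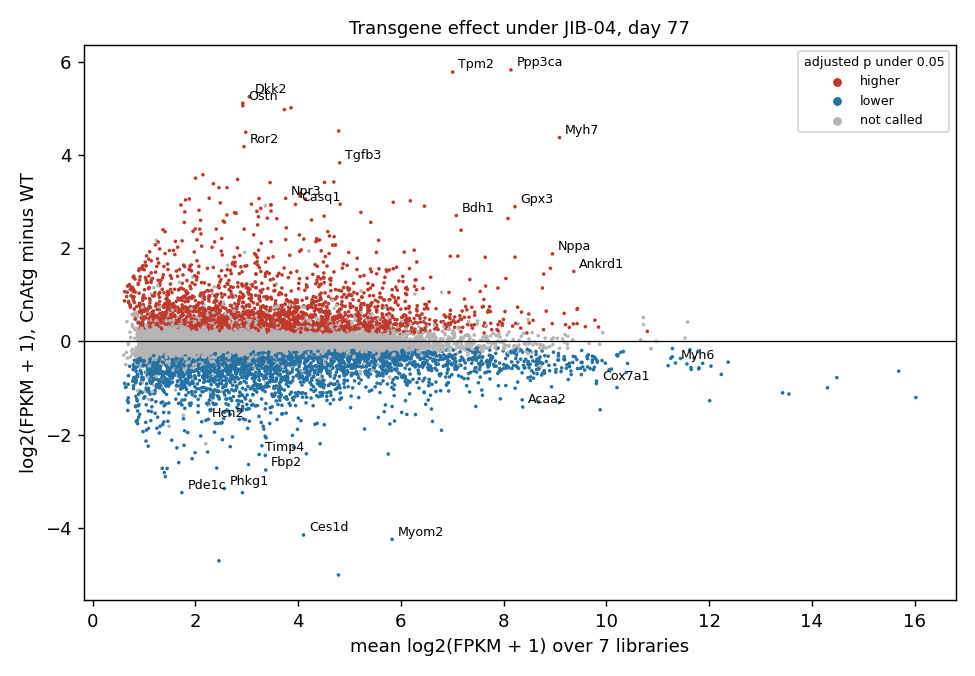
Each point is 1 of the 12880 features; the x axis is its mean log2(FPKM + 1) over the 7 libraries and the y axis the difference in log2(FPKM + 1), CnAtg minus WT, both under JIB-04 at day 77. Coloured points passed an adjusted p under 0.05 (2327 higher, 2715 lower), the horizontal line marks no difference, and names mark genes described in the text, with Ppp3ca and Tpm2 at the top and Myom2 near the bottom.

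Ppp3ca, the calcineurin A alpha gene (chromosome 3, 136670124 to 136937727 on GRCm38), was measured at 1579, 1631, 1475 and 1682 FPKM in the 4 CnAtg libraries and at 26.7, 28.6 and 26.1 in the 3 WT libraries. All CnAtg libraries lay far above all WT libraries, and no library went against its genotype label. The mean was 1592 ± 88.7 (SD, n = 4) against 27.1 ± 1.29 (SD, n = 3), a ratio of 58.7 and a log2 difference of 5.82 (SE 0.061, limma adjusted p = 1.1e-09). Reads of the transgene and of the mouse's own gene are not separated in this value. In CnAtg vehicle hearts of the same age the mean was 1597 FPKM.

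The calcineurin and NFAT list, which includes Ppp3ca, had 19 tested genes, with a median of 0.04 against -0.01 over all features. Of these genes 6 were higher and 3 lower, where 18.1% and 21.1% of all features were. On the reduced total 14 were higher and 2 lower, where 38.6% and 11.2% of all features were. Apart from Ppp3ca, the 3 other phosphatase subunit genes did not pass the test. Ppp3cb was at a log2 difference of -0.07 and Ppp3cc at 0.13, and on the reduced total Ppp3cb turned above 0 and all of these subunits were called higher. Rcan1, a calcineurin inhibitor and a known NFAT target, stood at 95.1, 98.7, 68.5 and 81.7 FPKM in CnAtg and 37.4, 26 and 24.6 in WT. The ranges did not overlap, and the mean was 2.94-fold higher (log2 difference 1.53, SE 0.17, limma adjusted p = 2.6e-04). Its relative Rcan2 was higher by 0.63 and the nuclear-envelope anchor Akap6 by 0.85. Among the transcription factors Gata4 was higher by 0.60, whereas Nfatc2 fell by 0.65 and Mef2a fell by 0.49, all called in every fit without 1 library.

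Several genes were close to 0 in WT hearts and clearly expressed in CnAtg hearts. Dkk2, a secreted Wnt antagonist (chromosome 3, 132085292 to 132180293), was at 41.5, 42.7, 33.4 and 36.4 FPKM in CnAtg libraries and at 0.0353, 0 and 0.0688 in WT. Ostn, which encodes osteocrin, a secreted peptide that occupies the natriuretic clearance receptor (chromosome 16, 27307489 to 27351212), was at 35.6, 36.1, 31.5 and 31.2 FPKM against 0, 0 and 0.00139. Ppp1r1c, an inhibitor of protein phosphatase 1 (chromosome 2, 79707780 to 79818496), was at 31.7, 39.3, 36 and 26.5 against 0.000693, 0.000693 and 0.0733. In each of these genes the lowest CnAtg library was clearly expressed, while the WT libraries were at or near 0. The log2 differences were 5.25 (SE 0.098) for Dkk2, 5.11 (SE 0.08) for Ostn and 5.05 (SE 0.13) for Ppp1r1c, with limma adjusted p of 2.0e-08, 9.0e-09 and 1.5e-07. No ratio is given against WT levels this close to 0. Edn3, the peptide endothelin 3 (chromosome 2, 174760619 to 174784042), was at 40.1, 25.4, 26.6 and 25.5 FPKM against 0.189, 0.603 and 0.242. Ror2, a receptor for non-canonical Wnt ligands (chromosome 13, 53109312 to 53286124), was at 29.7, 23.7, 23.6 and 25.9 against 0.484, 0.455 and 0.477. Both were above WT in every CnAtg library, by 4.49 and 4.18 on the log2 scale (SE 0.18 and 0.093). In Dkk2, Ostn, Ppp1r1c, Edn3 and Ror2 every WT library was under 1 FPKM. These genes could reach the filter only through the CnAtg libraries, so the filter largely set their direction and their p-values are no separate support for it. CnAtg vehicle hearts of the same age were at means of 33.9 FPKM for Dkk2, 39 for Ostn and 26.3 for Ror2.

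The 250 bases before the start of 4 of these genes with a window in the RefSeq table are shown because the genes were called higher by more than 4 on the log2 scale from a WT mean under 0.5 FPKM, the sharpest on and off pattern of the comparison. Ostn also met this rule but had no window in the RefSeq table. They come from RefSeq on GRCm38.p6, read 5′ to 3′ on the gene's strand, and capitals mark GGAAA or its reverse complement TTTCC, the core letters that NFAT factors bind.
Dkk2, chr3:132085042-132085291, plus strand: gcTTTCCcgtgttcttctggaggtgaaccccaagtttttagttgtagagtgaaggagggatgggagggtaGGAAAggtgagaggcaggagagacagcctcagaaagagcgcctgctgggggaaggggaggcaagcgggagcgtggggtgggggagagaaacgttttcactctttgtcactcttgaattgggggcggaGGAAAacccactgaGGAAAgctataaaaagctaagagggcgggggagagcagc
Edn3, chr2:174760369-174760618, plus strand: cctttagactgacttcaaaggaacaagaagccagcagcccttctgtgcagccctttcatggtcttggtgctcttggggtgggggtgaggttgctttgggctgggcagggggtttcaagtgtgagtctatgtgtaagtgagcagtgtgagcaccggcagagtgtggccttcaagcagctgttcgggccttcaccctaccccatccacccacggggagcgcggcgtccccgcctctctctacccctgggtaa
Ppp1r1c, chr2:79707530-79707779, plus strand: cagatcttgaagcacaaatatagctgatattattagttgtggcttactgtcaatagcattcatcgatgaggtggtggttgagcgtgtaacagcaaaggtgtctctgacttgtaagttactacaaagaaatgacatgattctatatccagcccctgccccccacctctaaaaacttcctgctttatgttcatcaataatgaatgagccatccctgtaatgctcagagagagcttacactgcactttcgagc
Ror2, chr13:53286125-53286374, minus strand: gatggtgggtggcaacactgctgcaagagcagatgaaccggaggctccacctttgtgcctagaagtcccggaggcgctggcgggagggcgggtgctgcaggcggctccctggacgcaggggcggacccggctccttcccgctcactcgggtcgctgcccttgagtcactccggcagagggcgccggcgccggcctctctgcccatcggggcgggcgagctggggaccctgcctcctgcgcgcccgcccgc
The Dkk2 window held 4 matches and each of the other windows 0. Of 8950 tested features with a window, 54% held at least 1 match on either strand, as did 53.2% of the 1683 windows of higher features and 53.9% of the 1886 windows of lower features. In all 27025 windows of the table the share was 55.6%. The MEF2 motif was in 2.2% of windows of higher and 1.75% of lower features, against 1.9% of those tested. The GATA letters AGATAA or TTATCT were in 4.99% and 6.42%, against 5.72%. The 3 motifs were counted separately and a base may lie in more than 1 of them.

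**Figure D2:**
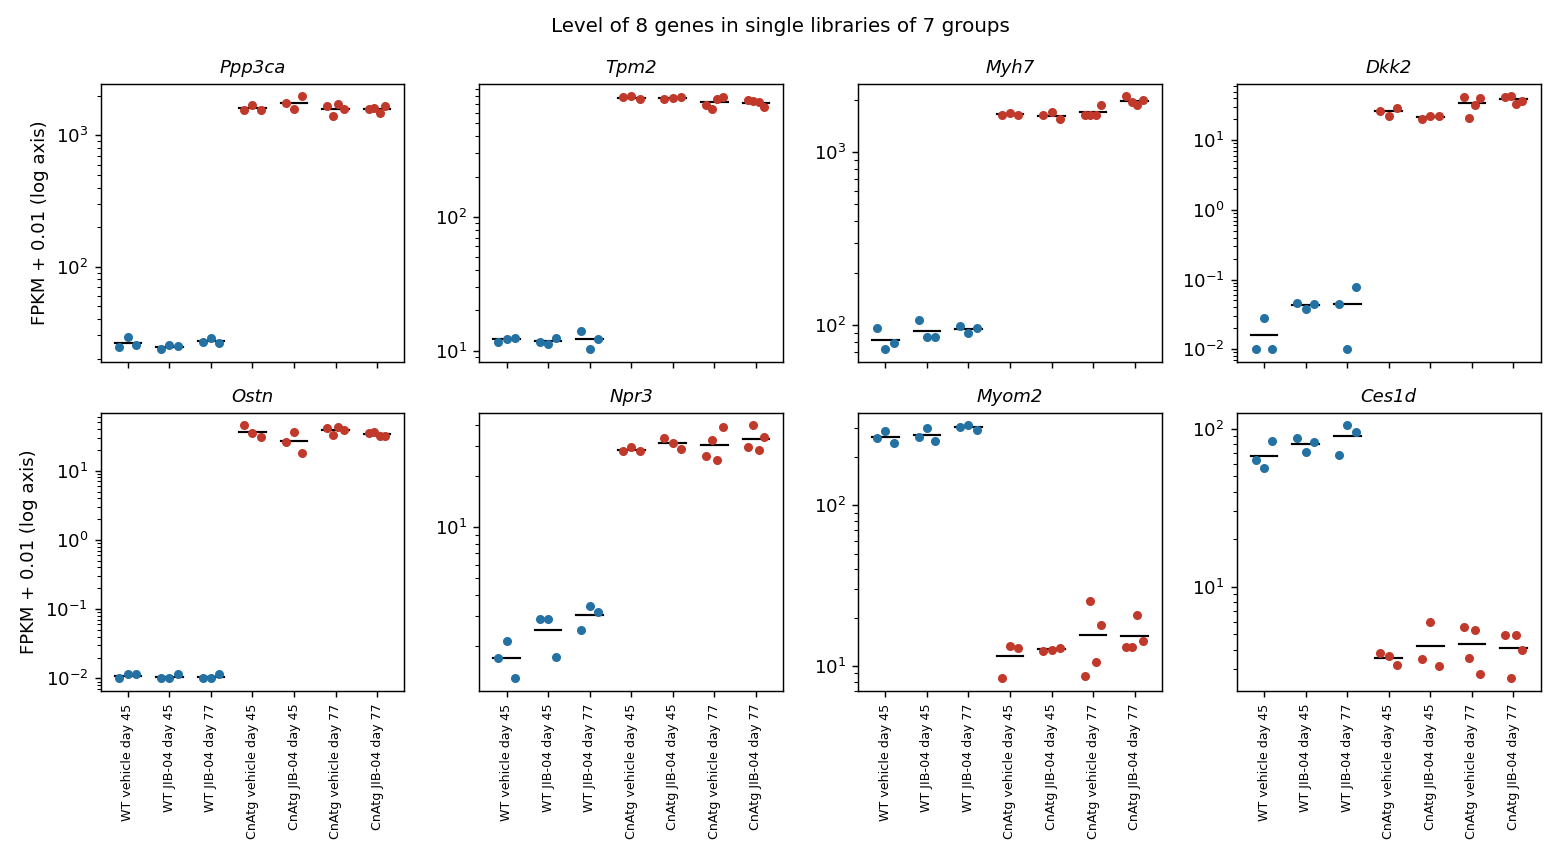
FPKM (log axis of FPKM + 0.01) of 8 genes in single libraries (points) of all 7 groups, with the group mean as a bar. In Ppp3ca, Tpm2, Myh7, Dkk2, Ostn and Npr3 every CnAtg library lies above every WT library at both ages and under both treatments, and in Myom2 and Ces1d every CnAtg library lies below.

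Genes of the fetal and hypertrophic heart were higher almost as a whole list. Of 18 tested, 17 were higher and 1, Csrp3, was lower, with a median of 1.58 against -0.01 over all features. Every call held in the 7 fits that left out 1 library. Some members were under 1 FPKM in at least 1 library; with at least 1 FPKM asked of every library, 14 were higher and 1 lower. Tpm2, which encodes beta-tropomyosin of slow and fetal muscle, was at 750.2, 728, 720.1 and 659 FPKM in CnAtg and 14, 10.2 and 12.2 in WT, a ratio of 58.9 (log2 difference 5.78, SE 0.096, limma adjusted p = 1.1e-08). Myh7, the slow beta-myosin heavy chain, was at 1993 ± 96.8 (SD, n = 4) FPKM against 95.3 ± 4.7 (SD, n = 3), a ratio of 20.9 (log2 difference 4.37, SE 0.059). The adult alpha-myosin gene Myh6 moved the other way, at 2267 ± 168 (SD, n = 4) FPKM against 3123 ± 154 (SD, n = 3), with every CnAtg library below every WT library, and fell by 0.46. Myh6 and Myh7 are close copies, and the authors' counting could have shared reads between them. The fetal troponins Tnnt1 and Tnni1 were higher by 1.54 and 1.68, and the atrial and fetal light chain Myl4 by 1.62. Among stress genes, Ankrd1, a titin-bound repeat protein, had 1031 ± 104 (SD, n = 4) FPKM against 364 ± 40.9 (SD, n = 3). Nmrk2, a kinase of NAD synthesis, was higher by 2.64, the LIM protein gene Fhl1 by 1.83, and Xirp2 by 1.16. Sprr1a was at 7.59, 8.25, 11.7 and 5.84 FPKM in CnAtg and at 0.322, 0 and 0 in WT, and could reach the filter only through the CnAtg libraries. Csrp3 fell by 0.32, and this call was lost under quantile normalization and on the reduced total.

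Within the sarcomere list, 14 of 31 tested genes were higher and 10 lower (median 0.13), where 18.1% and 21.1% of all features were. The roles as split in this list differed in direction. Z-disc genes, which anchor and sense tension in thin filaments, were higher in 8 of 12 and lower in 1. Myot, which encodes myotilin, was at 189, 137, 124 and 117 FPKM against 15.4, 23 and 13, a ratio of 8.25 with no overlap (log2 difference 2.98, SE 0.21, limma adjusted p = 2.5e-05). Synpo2l was higher by 1.70, the filamin Flnc by 1.16 and its chaperone partner Bag3 by 1.07. Thick-filament genes of this list were lower in 4 of 5, among them the kinase Mylk3, which fell by 0.39, and under quantile normalization in 2. Other thick-filament genes, Myh7, Myh7b, Myl4 and Myl7, were counted in the fetal list and were higher by 4.37, 0.62, 1.62 and 1.365. The direction of this role therefore depends on how the lists were split. The thin-filament inhibitor Tnni3 fell by 0.52. Under quantile normalization 18 genes of the list were higher and 5 lower. On the reduced total 20 and 6 were, where 38.6% and 11.2% of all features were. The M-band gene that fell was Myom2. This M-band protein of fast and adult fibres (chromosome 8, 15057653 to 15133541) was at 13.2, 13.1, 20.7 and 14.3 FPKM in CnAtg and 307, 313 and 293 in WT. The highest CnAtg library lay far below the lowest WT library. The WT mean was 19.8 times the CnAtg mean (log2 difference -4.25, SE 0.14, limma adjusted p = 9.7e-07). Its relatives Myom1 and Myom3 were higher, by 0.33 and 0.81.

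The natriuretic peptide system acts through ligands that raise cyclic GMP at cyclase receptors such as Npr1 and are cleared by Npr3. Of its 12 tested genes 6 were higher and 4 lower (median 0.38). The 3 tested ligand genes, Nppa, Nppb and Ostn, were all higher. Ostn, described above, was under 1 FPKM in every WT library, so it could reach the filter only through the CnAtg libraries. Nppa, atrial natriuretic peptide, was at 677, 1263, 726 and 884 FPKM in CnAtg against 210.3, 238 and 256 in WT, with a log2 difference of 1.88 (SE 0.20, limma adjusted p = 2.0e-04). Nppb, brain natriuretic peptide, was at 428, 745, 557 and 693 against 165, 65.4 and 78, with a difference of 2.64 (SE 0.31). The CnAtg libraries spread widely in both genes, with replicate 2 the highest, and their lowest values still lay above the highest of WT. The clearance receptor Npr3 (chromosome 15, 11839896 to 11905674) was at 29.7, 39.7, 28.3 and 33.9 FPKM against 2.48, 3.43 and 3.17, a ratio of 10.9 (log2 difference 3.07, SE 0.13, limma adjusted p = 2.5e-06). The cyclase receptor Npr1 was lower at 3.45, 5.26, 3.79 and 4.59 against 9.21, 9.16 and 9.13, a difference of -0.96. Of the proteases, Furin was higher by 1.56 while Corin, which cuts the atrial peptide, fell by 0.69 and Mme, which degrades the peptides, fell by 1.06. Mme was low throughout, at 0.582, 0.549, 0.618 and 0.401 FPKM against 2.04, 2.8 and 1.86, and could reach the filter only through the WT libraries. Atrial markers, a list that includes Nppa, were higher in 4 of 6 tested and lower in 2. All 9 genes of the list, tested or not, had summed levels of 702.8 to 1300.0 FPKM in CnAtg and 239.5 to 282.9 in WT. The part of atrial tissue in the libraries was not tested.

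Of 28 tested Wnt genes 14 were higher and 4 lower (median 0.55), and with at least 1 FPKM asked of every library 6 were higher. Of 10 genes of secreted inhibitors 6 reached the filter and were higher. Sfrp1 was above 1 FPKM in every library, while the 5 others were under it in at least 1 WT library, and Dkk2 and Dkk3 in all 3, so their direction was partly fixed by the filter. Sfrp5, under 1 FPKM in every library and not tested, had a mean of 0.0691 FPKM in CnAtg and 0.73 in WT. All 10, tested or not, had summed levels of 68.7 to 92.6 FPKM in CnAtg libraries against 6.87 to 9.94 in WT. Besides Dkk2, Sfrp2 was at 7.4, 15.4, 11.5 and 19.4 FPKM against 0.925, 0.669 and 1.83 and Dkk3 at 4.34, 9.45, 5.84 and 8.65 against 0.639, 0.61 and 0.935. Sfrp1 was higher by 1.62, Frzb by 1.61 and Wif1 by 1.04. In each of these genes every CnAtg library was above every WT library. None of the 4 tested ligands passed the test. Among receptors 6 of 13 were higher and 2 lower. Fzd9 was at 17.6, 13.2, 12.9 and 11.5 FPKM against 0.558, 0.415 and 0.491, a log2 difference of 3.30 (SE 0.13, limma adjusted p = 1.9e-06). Fzd9 and Ror2, both among the higher receptors, were under 1 FPKM in every WT library. The filter therefore largely set their direction, and their p-values are no separate support for it. Kremen1, a receptor that Dickkopf proteins bind, was higher by 0.95 and Ror1 by 0.76, while the receptor Fzd4 fell by 0.70. Of 5 tested targets and transducers of the pathway 2 were higher and 2 lower (median 0.105). Among them the response gene Axin2 was higher by 0.97 (adjusted p = 0.013, limma), with 8.45, 3.39, 5.02 and 6.03 FPKM against 2.78, 1.82 and 2.36. The Axin2 call was lost with no filter on low values.

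Genes of energy metabolism were lower across most lists. All 34 nuclear genes listed for the respiratory chain, of complexes I, III and IV and ATP synthase, were lower, with a median of -0.55. All 34 were called in each fit without 1 library. Complex II genes were counted in the citric acid cycle list: Sdha, Sdhb and Sdhd fell by 0.43, 0.46 and 0.52, and Sdhc, at -0.07, was not called. Cox7a1 was at 696, 664, 724 and 645 FPKM against 1221, 1279 and 1333 and fell by 0.91, the widest difference of the list, and Cox6a2 fell by 0.29, the narrowest, a difference that was 0.015 and not called under quantile normalization. On the reduced total 28 of the 34 were still called lower and none higher, and under quantile normalization 29. All 10 tested mitochondrially encoded transcripts were lower (median -0.58), led by mt-Co2 at 46564 ± 1389 (SD, n = 4) FPKM against 107622 ± 11442 (SD, n = 3). These are part of the scaling itself: under quantile normalization 1 of the 10 was called lower and 1 higher, with no filter on low values 6 were called lower, and on the reduced total they take no part.

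Fatty acid oxidation, the main fuel route of the adult heart, had 29 of 35 genes lower and 0 higher, with a median of -0.60. Acaa2, a mitochondrial thiolase, was at 226, 219, 241 and 185 FPKM against 529, 652 and 557, and the WT mean was 2.66 times the CnAtg mean (log2 difference -1.41, SE 0.10, limma adjusted p = 3.1e-05). Eci1 fell by 1.16, Hadh fell by 0.95, Etfb fell by 0.97 and the carnitine carrier Slc25a20 fell by 0.85. Ces1d, a carboxylesterase that can release fatty acids, was at 4.9, 2.62, 4.96 and 3.94 FPKM against 68.6, 105 and 94.9, a difference of -4.15 (SE 0.20). On the reduced total 22 of the 35 were lower and 1 higher. In the citric acid cycle list 18 of 24 were lower and 1, the pyruvate dehydrogenase kinase Pdk1, was higher. Citrate synthase, Cs, fell by 0.84. On the reduced total 13 of this list were lower and 5 higher, and under quantile normalization 15 and 4.

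Ketone and glucose genes held the exceptions. Bdh1, which oxidises the ketone body hydroxybutyrate, was at 347, 275, 306 and 278 FPKM in CnAtg and 47.9, 35.8 and 54.3 in WT, a ratio of 6.55 with no overlap (limma adjusted p = 6.4e-06). Branched-chain amino acid genes were lower in 7 of 8, among them Bckdhb and Mccc1, which fell by 0.79 and by 0.70. Of the whole list of 20, 11 were lower and 2 higher. Without WT replicate 2, 7 genes of the ketone and amino acid list were lower, as were 7 on the reduced total. Of 33 genes of glycolysis and glycogen, 7 were higher and 18 lower (median -0.25). Under quantile normalization 8 were higher and 16 lower (median -0.14). On the reduced total 10 were higher and 12 lower, where 38.6% and 11.2% of all features were. The median of the list was then -0.02, against 0.19 over all features. Gpi1, the second step of glycolysis, was at 750.2, 754, 800.2 and 755 FPKM against 256, 252 and 264, a ratio of 2.97 (log2 difference 1.57, SE 0.048). Hexokinase Hk1 was higher by 1.14, while the insulin-regulated glucose carrier Slc2a4 fell by 0.60, Ldha fell by 0.95 and the muscle enolase Eno3 fell by 1.31. Subunits of phosphorylase kinase moved apart: Phka1 was higher at 55.1, 43.4, 41.5 and 44.9 against 8.91, 11.6 and 10.3, and the catalytic Phkg1 was lower at 1.13, 0.996, 1.62 and 1.58 against 22, 17 and 20.1. Fbp2, muscle fructose bisphosphatase, fell by 2.76. Creatine kinase Ckm fell by 0.85 and the creatine carrier Slc6a8 was higher by 0.79. Of 16 transcription factors of energy metabolism 4 were lower and 0 higher, where 21.1% of all features were lower; Esrra fell by 0.46 and Rxrg fell by 0.66, and on the reduced total 2 of the 16 were higher and 2 lower.

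**Figure D3:**
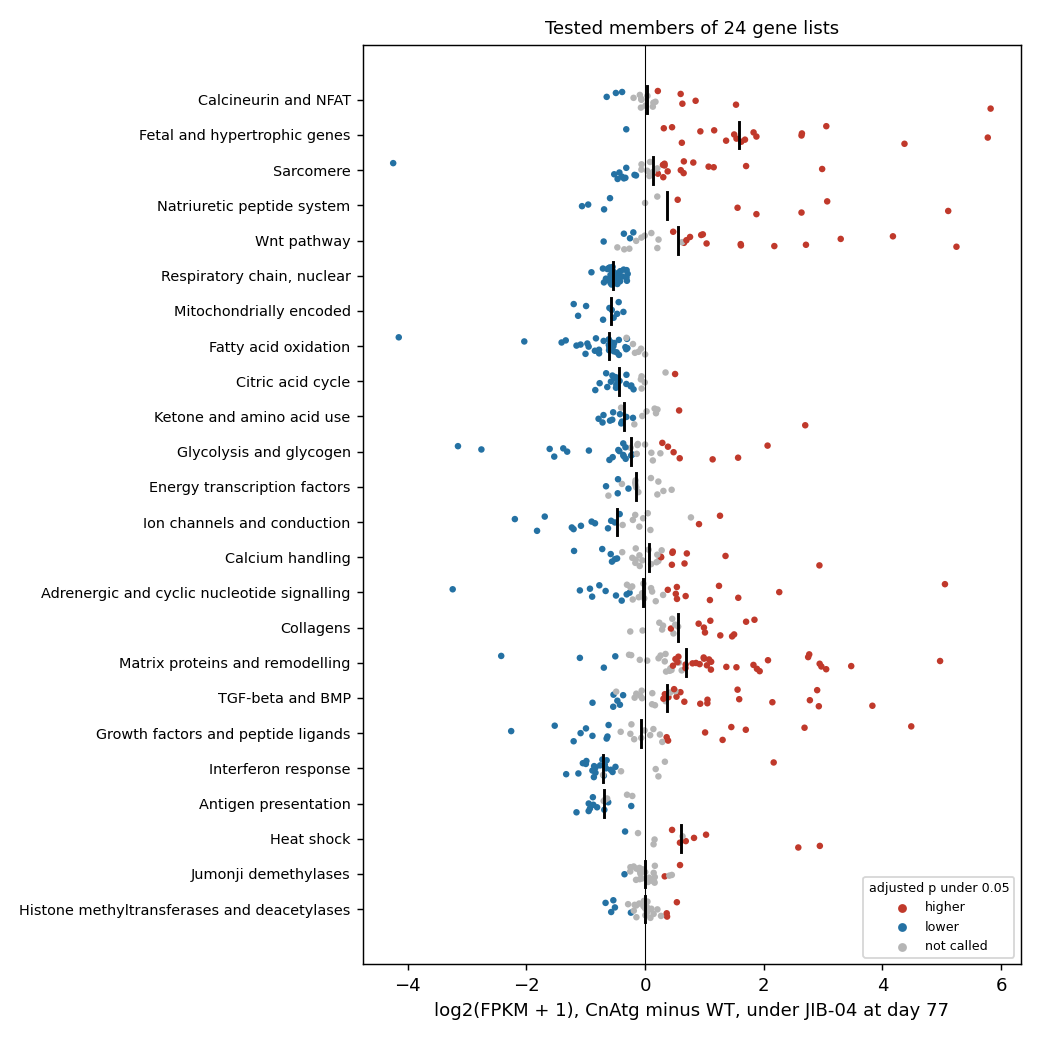
Log2 differences (CnAtg minus WT, under JIB-04 at day 77) of the tested members of 24 gene lists, 1 point a gene, coloured by call (adjusted p under 0.05), with the list median as a black bar. All 34 points of the nuclear respiratory chain list, which leaves out complex II, lie left of 0. Of the fetal and hypertrophic genes 17 of 18 lie right of it, and the Jumonji list centres on 0 (median 0.00).

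Ion channel genes were lower in 12 of 22 and higher in 2 (median -0.47). The potassium channel genes Kcnj3, Kcnj8, Kcnd2 and Kcnq1 fell by 1.21, by 1.24, by 1.08 and by 0.85. Kcne1, a potassium channel subunit, was at 0.518, 0.146, 0.568 and 0.589 against 5.2, 1.97 and 6.22. Kcne1 could reach the filter only through the WT libraries, which largely set its direction. The pacemaker channels moved apart, with Hcn4 at 6.37, 4.54, 5.06 and 5.41 against 2.19, 1.48 and 1.31 and Hcn2 at 1.94, 1.76, 1.89 and 1.56 against 7.81, 6.6 and 9.9. Kcnip2, a partner of the transient outward channel, was higher by 0.91. Among calcium handling genes 9 of 29 were higher and 6 lower (median 0.06), where 18.1% and 21.1% of all features were, and on the reduced total 15 and 6, where 38.6% and 11.2% were. Casq1, the store protein of fast skeletal muscle, was at 44.6, 43.1, 26.5 and 32.5 FPKM against 4.43, 3.99 and 3.11, while its cardiac relative Casq2 was higher by 0.45. Phospholamban, Pln, fell by 0.47 and the calcium sensor S100a1 fell by 0.72. The calcium pump Atp2a2 was at -0.16 (adjusted p = 0.11, limma) and the release channel Ryr2 at -0.09 (adjusted p = 0.48), and both turned above 0 on the reduced total. Without WT replicate 1 Atp2a2 was called lower (-0.22 on the log2 scale). Cacna1g, a T-type channel of the embryonic heart, was higher by 1.36, while another T-type channel gene of the list was at -0.10 and not called.

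In the adrenergic and cyclic nucleotide list 10 of 32 genes were higher and 10 lower (median -0.04), where 18.1% and 21.1% of all features were. The receptor kinase Grk5 was at 45.1, 48.6, 43.9 and 49.5 FPKM against 9.02, 8.14 and 9.78, a log2 difference of 2.26 (SE 0.078, limma adjusted p = 9.7e-07). The endothelin receptor Ednra was higher by 1.57 and the alpha-1A adrenergic receptor Adra1a by 1.09. Pde1c, a phosphodiesterase activated by calcium and calmodulin, was at 0.199, 0.283, 0.337 and 0.262 FPKM against 11.8, 10.7 and 10.6. Pde1c was near 0 in all CnAtg libraries and expressed in all WT libraries, a log2 difference of -3.24 (SE 0.088). It could reach the filter only through the WT libraries, which largely set its direction. Pde3a fell by 0.93. Without WT replicate 2, and likewise without WT replicate 3, the lower genes of this list numbered 6, and on the reduced total its median turned above 0.

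More matrix genes were higher than lower. Of 19 tested collagen genes 10 were higher and 0 lower (median 0.56), with Col1a1 at 21.7, 41.3, 35.7 and 41 FPKM against 14.8, 8.12 and 13 and Col3a1 at 47.9, 98.3, 89.9 and 104 against 33.3, 18.6 and 35.9. CnAtg replicate 1 was the lowest of its group in both genes and was still above WT. Of 46 other matrix genes 28 were higher and 4 lower (median 0.68). Leprel1, a collagen prolyl 3-hydroxylase, was at 56.5, 62.2, 50.5 and 59.8 FPKM against 0.993, 0.875 and 0.697 (log2 difference 4.97, SE 0.093). Comp and Cilp, matrix proteins of cartilage and scar, were higher by 3.47 and 2.97, the microfibril gene Mfap4 by 3.05 and asporin, Aspn, by 2.94. Leprel1 and Comp were under 1 FPKM in every WT library. They could reach the filter only through the CnAtg libraries, which largely set their direction. Timp1 was higher by 2.75, whereas Timp4, the inhibitor most abundant in the normal heart, was at 10.3, 3.95, 3 and 0.985 FPKM against 19.8, 37.5 and 17.8 and fell by 2.43. Its CnAtg libraries spread widely, all below WT.

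The TGF-beta and BMP list had 18 of 36 genes higher and 6 lower (median 0.36). Tgfb3 was at 87.7, 85.1, 76.8 and 97.1 FPKM against 5.32, 5.04 and 5.06, a log2 difference of 3.83 (SE 0.082, limma adjusted p = 5.1e-08), and Tgfb2 at 20.9, 34, 20.7 and 28.4 against 2.74, 1.88 and 2.89. The response gene Ctgf was at 197, 217, 197 and 218 against 23.1, 36.6 and 22.9 and the activin antagonist Fst at 8.08, 7.25, 5.71 and 6.76 against 0.205, 0.171 and 0.0852. No library overlapped in these 4 genes. Fst was under 1 FPKM in every WT library, so it could reach the filter only through the CnAtg libraries. Ltbp1 fell by 0.89 while Ltbp2 was higher by 2.15. The lower genes of the list numbered 2 without WT replicate 1 or without WT replicate 3, and 3 without CnAtg replicate 2. Among other growth factors 8 of 27 were higher and 9 lower, where 18.1% and 21.1% of all features were. Hbegf, an EGF-receptor ligand, was at 63.6, 43.1, 48.9 and 44.4 against 6.64, 7.36 and 6.51, and the neurotrophin Bdnf was higher by 1.70. The vessel factors Angpt1, Vegfb and Vegfa fell by 2.26, by 0.89 and by 0.64, with Angpt1 at 1.8, 2.55, 2.41 and 2.37 FPKM against 12.9, 15.4 and 15.8.

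Marker genes of other heart cells differed beside these results. Heart muscle markers were abundant in every library, with a summed level of 7867 to 8642 FPKM over 7 genes in CnAtg and 9844 to 10750 in WT, and 1 of 7 was higher and 3 lower. Of 11 fibroblast markers 7 were higher and 1 lower, with summed levels of 1045 to 1392 against 784.5 to 936. Of 7 tested markers of activated fibroblasts 6 were higher and 1, Fap, fell by 0.78, a gene that did not reach the filter when any 1 WT library was left out; with at least 1 FPKM asked of every library 3 were tested, all higher; the sum of the list was 291.5 to 427.5 against 44.9 to 90.9 FPKM. Acta2, smooth muscle actin, made up most of it, at 240.2, 313, 284 and 337 against 69.8, 31.7 and 74.8. Of 13 endothelial markers 11 were lower and 1, Vwf, was higher, with sums of 224.2 to 291.8 against 408.7 to 477.5 FPKM. Cdh5, VE-cadherin, was at 20.6, 19.3, 21.9 and 27 against 61, 42.2 and 51.5, and the receptors Tie1 and Kdr fell by 1.08 and by 1.04. Mural cell genes were lower in 6 of 10 tested, with Rgs5 at 59.7, 50.4, 63.3 and 77.5 against 153, 119.8 and 131 and Acta2 and Cspg4 the 2 higher. The sum over all 11 genes of the mural list was 443.7 to 574.1 FPKM in CnAtg against 393.5 to 485.2 in WT. Of 11 macrophage markers 2 were lower, where 21.1% of all features were, and 7 were lower with sex as a term in the fit. None of the T and NK cell, adipocyte or lung, liver and thymus markers reached the filter. The part of cell makeup in the lists above was not tested.

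Interferon-response genes were lower in 19 of 25 tested, with 1 higher (median -0.71). Rsad2 was at 1.7, 1.95, 2.36 and 2.6 FPKM in CnAtg and 8.17, 5.09 and 7.78 in WT, and Irgm1 at 6.98, 7.58, 8.38 and 7.83 against 16.3, 13.8 and 19. Their libraries did not overlap, and WT replicate 3 was the highest for Irgm1. Without WT replicate 3, 12 genes of the list were lower, as were 12 with no filter on low values. The guanylate-binding gene Gbp6 was higher, at 119, 84.4, 82 and 76.7 against 11.8, 26.6 and 22 (log2 difference 2.17, SE 0.26, limma adjusted p = 3.8e-04). Of 15 tested antigen presentation genes 10 were lower, 9 of 9 of class I and 1 of 6 of class II, and on the reduced total 6 of the 15, all of class I. Class I genes had a summed level of 326.1 to 418.9 FPKM against 575 to 944.8. The immunoproteasome subunit Psmb8 was at 8.95, 10.8, 9.53 and 10.7 against 18.7, 14.7 and 25.2. At day 45 under JIB-04 2 of the 9 class I genes were lower, and the difference between the ages was not past the threshold for any gene.

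Stress genes were higher in part of their lists. In the heat shock list 7 of 12 were higher and 1 lower (median 0.61). Hspa1b was at 14.5, 24.7, 43 and 8.9 FPKM against 1.29, 2.63 and 1.24 and Hsp90aa1 at 70.3, 111, 100.2 and 89.3 against 46.7, 48.2 and 38.9; Hspa1a and Hspa1b are near-identical copies and their split is uncertain. Among 23 genes of the unfolded protein and integrated stress responses 7 were higher and 2 lower, where 18.1% and 21.1% of all features were. Atf3 was higher by 1.88, Ppp1r15a by 1.23 and Atf4 by 0.47. With CnAtg replicate 3 left out none of the list was lower, and on the reduced total 15 were higher, where 38.6% of all features were. In the oxidative stress and NRF2 list 5 of 18 genes were higher and 6 lower, where 18.1% and 21.1% of all features were. The lower genes numbered 2 without WT replicate 2 or without WT replicate 3. On the reduced total 9 were higher and 2 lower, where 38.6% and 11.2% of all features were. Gpx3, a secreted glutathione peroxidase, was at 664, 725, 683 and 735 FPKM against 91.4, 101 and 89.1, and Nqo1 was higher by 1.03, while mitochondrial Sod2 fell by 0.68. Among ubiquitin ligases the muscle F-box gene Fbxo40 was higher by 1.11. Of that list of 15, 8 were higher and 2 lower. The higher genes numbered 4 without CnAtg replicate 3, without WT replicate 1 or without WT replicate 3, and 5 without CnAtg replicate 1.

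Of 25 tested genes of the Jumonji demethylase family 2 were higher and 1 lower, where 18.1% and 21.1% of all features were, and the median was 0.00. Kdm5b, an H3K4 demethylase, was higher by 0.33, a call lost without WT replicate 3 (adjusted p = 0.051, limma). None of the 3 calls was held in all of the fits without 1 library. On the reduced total 11 of the 25 were called higher, where 38.6% of all features were. Of 28 histone methyltransferase and deacetylase genes 3 were higher and 5 lower. On the reduced total 10 and 4 were, where 38.6% and 11.2% of all features were. Smyd2 and Sirt3 fell by 0.57 and by 0.54.

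**Figure D4:**
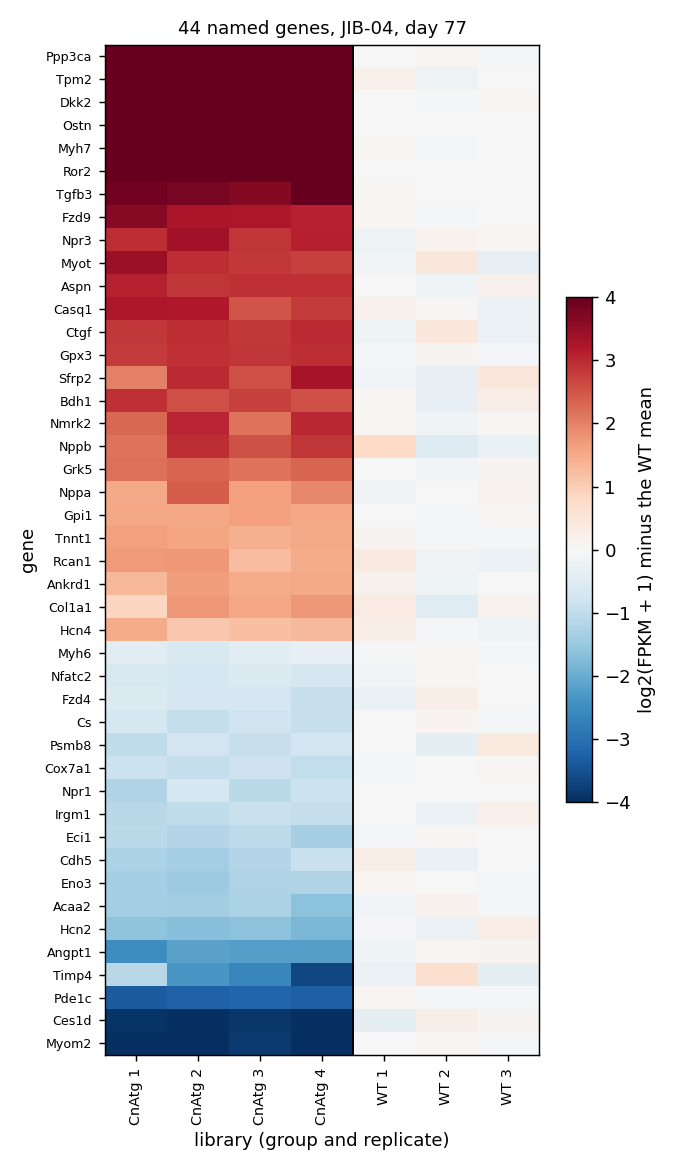
Log2(FPKM + 1) of 44 named genes in the 4 CnAtg and 3 WT libraries under JIB-04 at day 77, each minus the mean of the 3 WT libraries (colour scale, limited at 4 on either side). Rows are ordered by the difference between the groups, and no row changes sign between libraries of the CnAtg group.

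By fold, the genes with the largest increase beside those above were Igsf23, a gene of the immunoglobulin superfamily at 63.6 ± 6.95 (SD, n = 4) FPKM against 1.06 ± 0.647 (SD, n = 3), and Arid5a, Dct and Nlrc3, which were higher by 3.41, 3.41 and 3.38. The largest losses included the phospholipase Pla2g5 (1.92 ± 0.589 (SD, n = 4) against 26.5 ± 3.84 (SD, n = 3) FPKM), the chloride channel Clcn1 and the calcitonin receptor partner Ramp1, which fell by 3.25, by 2.72 and by 2.73. Lrrc4b, Lrrc15, Tmod4, Sorcs2, Epn3 and the transaminase Gpt fell by 2.45 to 2.90. The clone-named model RP24-79E2.2 was at 2.31, 0, 0.0203 and 0 FPKM in the CnAtg libraries and 32.5, 44.5 and 28.2 in WT. In all of them every CnAtg library lay on 1 side of the WT libraries, as the rule that picked them required. Nlrc3 was under 1 FPKM in every WT library, and Clcn1, Ramp1, Lrrc4b, Lrrc15 and Sorcs2 in every CnAtg library. These genes could reach the filter only through the other group, which largely set their direction.

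The same contrast at day 45 under JIB-04 used 6 other libraries, 3 CnAtg and 3 WT. Of 12803 features tested there 2458 (19.2%) were higher and 2251 (17.6%) lower. Higher at both ages were 1740 features, 74.8% of the day-77 calls and 70.8% of the day-45 calls; lower at both were 1852, 68.2% and 82.3%. A single feature, the gene model Gm9762, was called in opposite directions. Its lower call at day 77 (limma adjusted p = 0.032) was lost without any 1 of CnAtg replicates 1, 2 and 4 or WT replicates 1 and 2 (limma adjusted p = 0.068 to 0.11). Across 12617 features tested at both ages the log2 differences had a Pearson r of 0.904 and a Spearman rho of 0.852, given as a description, since genes are not independent. Libraries are not shared between the ages, although strain, drug and tissue are, and age cannot be told apart from week of treatment start. The difference between the effects was tested directly over the 13 JIB-04 libraries. None of 13334 features passed an adjusted p of 0.05 (limma, smallest adjusted p = 0.17), and 829 (6.22%) had an unadjusted p under 0.05, where 667 would be given by chance. The 95% interval of such a difference reached a median of 0.32 to either side.

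**Figure D5:**
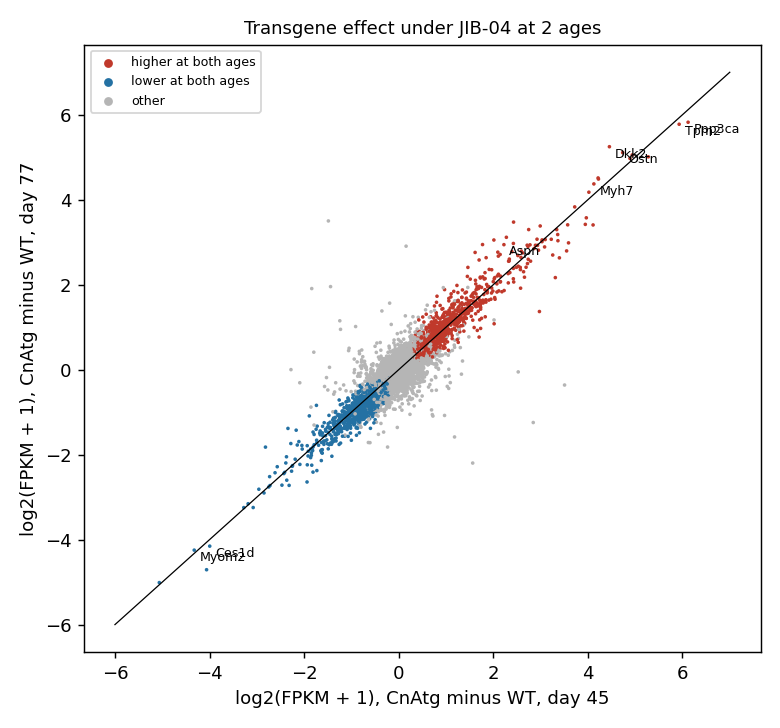
Log2 difference CnAtg minus WT under JIB-04 at day 77 (y axis) against that at day 45 (x axis) for the 12617 features tested at both ages; the line marks equal differences. Features called at both ages are coloured (1740 higher, 1852 lower), and the cloud follows the line (Pearson r 0.904 over features).

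For Dkk2 the transgene effect was larger at day 77 by 0.79 (SE 0.12, limma adjusted p = 0.22), with a CnAtg mean of 38.5 FPKM at day 77 and 21.7 at day 45. For Aspn it was larger by 0.72 (limma adjusted p = 0.28). Both were picked out here after their values were seen, and neither difference passed the threshold. For Ppp3ca the effects were 5.82 at day 77 and 6.12 at day 45, and for Ostn 5.11 and 4.74.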

How the data were processed

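The labels' protocols describe RNA sequencing of mouse hearts; the submitters' processing notes name STAR 2.7.1a, Picard, GATK 4.1.2, Cufflinks 2.2.1 and the build GRCm38, without roles. The authors deposited 1 table per library with a column of log2 FPKM, read here as log2(FPKM + 1) because the smallest value is 0. The library kit was non-directional, per the labels' protocols, so reads of overlapping or antisense genes cannot be told apart. Counts were not used, so depth is known only in relative terms. Features mt-Co3, mt-Atp6 and mt-Atp8, listed at 0 in the 3 WT libraries and 1 of the 4 CnAtg libraries, were left out. Each feature was fitted in limma 3.58.1 (R 4.3.3) on the deposited log2 values with an intensity trend and Benjamini-Hochberg adjustment over 12880 features; the difference between ages was an interaction over 13 libraries. The code was tested on simulated data. Named were called features with separate ranges and a mean of at least 2 FPKM, up to 15 each way by fold and up to 6 each way by FPKM difference, leaving aside numbered gene models, pseudogenes and sex-linked transcripts, plus up to 4 examples a list by size of difference or role. Further list members and Gm9762 were named after their values were seen. The members and lists were chosen with earlier results of these data known. Alternatives changed the pseudocount (0.1), filter, scaling, variance trend, a replicate block, sex, the libraries in the fit, and left out each library.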

Additional observations from a re-analysis of the deposited data

Results flagged for a closer look

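Among the 158 genes named above, 8 had 1 of the 4 CnAtg libraries far from the other 3, by Dixon's ratio of the gap to the group's range, which chance passes in about 1 of 20 groups. CnAtg replicate 1 stood apart for Edn3 (40.1 FPKM), Ldha (167.8 FPKM), Vegfa (114.6 FPKM) and RP24-79E2.2 (2.31 FPKM). Replicate 3 stood apart for Myom2 (20.7 FPKM), Gpi1 (800.2 FPKM) and Clcn1 (0.218 FPKM), and replicate 2 for Kcne1 (0.146 FPKM). No fit that left out 1 library and tested these 8 genes lost their calls.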

How the results depend on the processing

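The counts of 2327 higher and 2715 lower features stayed within 1.5 times under every alternative run except on the reduced total, which gave 4968 and 1441. With the replicate block they were 1587 and 1923; libraries that share a number did not deviate together (correlations of -0.128, -0.101 and 0.078), so the numbers were not taken as pairs. Leaving out 1 library gave 1804 to 2082 higher and 1965 to 2480 lower. No feature differed between the ages as fitted. The counts of larger and smaller effects at day 77 were 3 and 3 with no filter on low values and 1 and 1 under quantile normalization. Smaller effects numbered 2 with a pseudocount of 0.1, 1 in the fit of all 23 libraries, and 0 to 2 without 1 library (1 without WT day-77 replicate 2, 2 without replicate 3); larger effects were 0 in each of those. On the reduced total Atp2a2, Ppp3cb and Ryr2 turned to 0.075, 0.153 and 0.139, and Cox6a2 was at 0.015 under quantile normalization; the cause of these shifts other than the rescaling was not tested. With FPKM of at least 1 required in every library, which tests fewer genes, 6 Wnt and 18 other matrix genes were higher; with no filter 6 antigen presentation genes were lower and 4 ubiquitin ligase genes higher. Depth limits low genes, and read counts are unknown.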
